A study of Triticum aestivum with 6 samples.

Results

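Transcript levels of the pathogenesis-related (PR) genes PR1 and PR4 were followed in the crown of synthetic hexaploid wheat through 3 of the 37826 probes of a wheat oligo DNA array. The members were chosen by probe name. The probe wheat0130Contig2348 was assigned to PR1 and wheat0130Contig9215 to PR4 by the study. A further probe, wheat0130Contig6231, is described in its annotation as "Pathogenesis-related 1". All 3 members had a value on each of the 6 arrays. A synthetic hexaploid is made by crossing a tetraploid wheat with the diploid wild wheat Aegilops tauschii. WT was Ldn/KU-2059, from the durum cultivar Langdon (Ldn) and the Ae. tauschii accession KU-2059, and it grew normally. Ldn/KU-2025 had the same tetraploid parent and the Ae. tauschii accession KU-2025. In crt/KU-2025, accession KU-2025 was combined with a tetraploid wheat of the subspecies carthlicum. Both of these lines develop type II necrosis at low temperature and form a grass-clump dwarf, a short plant with many tillers, at normal temperature. Each line was represented by 2 arrays of crown tissue, the shoot base that holds the shoot apical meristem, from 8-week-old plants grown at 24°C under 18 h of light and 6 h of dark. No low temperature entered these 6 samples. Each line is 1 synthetic combination, and crt/KU-2025 differs from WT in both parents, so that the effect of neither parent can be separated in that comparison.

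PR proteins accumulate in plants after attack by pathogens and in plants that express hybrid necrosis. PR1 is a small secreted protein of the CAP superfamily, and its transcript is a common marker of the salicylic acid defense pathway. PR4 proteins are small secreted proteins with a barwin domain, and the wheat members (wheatwins) have ribonuclease and antifungal activity. Other families of the group include the beta-1,3-glucanases (PR2) and chitinases, which attack fungal cell walls, the proteinase inhibitors (PR6), the class III peroxidases (PR9), the germin-like oxalate oxidases and related proteins, and the Bet v 1-like proteins (PR10).

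The description of wheat0130Contig6231 and its gene ontology terms point to different families. Its terms include defense response, receptor activity, abscisic acid binding and protein phosphatase inhibitor activity. The last pair are terms given to Bet v 1-like proteins and not to the CAP superfamily. It is therefore called the PR1-described probe here, and its family was not settled. The arrays gave no probe sequence or genome position, and 0 of the probe names matched the RefSeq gene table of wheat. The homoeologous copies of each gene on the A, B and D genomes cannot be told apart by 1 probe.

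Signals are given as the authors' scaled intensities, in which each array was brought to a common trimmed mean of 2500. A probe counted as detected when the scanner software flagged its spot as well above background. Between 75.1% and 77.6% of the probes were detected on each array, the lowest scaled signal of a detected probe was between 23.9 and 27.9, and 0 spots were saturated. WT and Ldn/KU-2025 shared a slide and a scan session (4 arrays). Both arrays of crt/KU-2025 were on a slide of their own, so that the effects of line and slide cannot be told apart for crt/KU-2025. The labels name 2 independent experiments per line without saying that they used separate plants, so p-values measure only the spread between these arrays. The tissue label was not checked against meristem markers.

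PR1 was detected in crt/KU-2025 and in neither of the other lines. The scaled signal of wheat0130Contig2348 was 7.2 and 7.5 in WT, 6.5 and 6.3 in Ldn/KU-2025, and 568.9 and 797.4 in crt/KU-2025 (replicates 1 and 2). Both crt/KU-2025 arrays stood far above the other 4, which were all below the lowest detected signal of their array. On the raw scan the spot gave a median of 35.0 and 38.0 in WT over a local background of 20.0 and 21.0. In crt/KU-2025 it gave 263.0 and 321.5 over a local background of 22.0 on both arrays. In WT the error that the scanner software assigned to the processed signal was 99.6% of that signal on each array, whereas in crt/KU-2025 it was 10.1% and 10.0%. No fold was given for PR1 between Ldn/KU-2025 and WT, since it was not detected in either line. This says that no difference was detectable at this signal, not that the transcript was absent.

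PR4 was barely above background in WT and Ldn/KU-2025 and bright in crt/KU-2025. The scaled signal of wheat0130Contig9215 was 10.0 and 19.7 in WT, 33.5 and 55.8 in Ldn/KU-2025, and 4200.4 and 12803.1 in crt/KU-2025. The arrays of the 3 lines did not overlap. Over all probes, Ldn/KU-2025 lay above WT without overlap in 35.0%, and crt/KU-2025 above Ldn/KU-2025 in 47.8%. The probe was detected on 0 of 2 WT arrays, on 1 of 2 arrays of Ldn/KU-2025 (replicate 2) and on both arrays of crt/KU-2025. Under a weaker flag of the scanner software, positive and significant against background, PR4 passed on all 6 arrays, whereas PR1 passed only on both crt/KU-2025 arrays. The replicates of PR4 were uneven. The higher array was 1.97 times the lower in WT, 1.67 times in Ldn/KU-2025 and 3.05 times in crt/KU-2025. In crt/KU-2025 only 4.97% of all probes were at least as far apart between the arrays, and in WT 4.02%. The local background of the PR4 spot, but not the spot itself, was flagged as an outlier on replicate 1 of crt/KU-2025.

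The PR1-described probe was detected on all 6 arrays and its lines were ordered WT, Ldn/KU-2025, crt/KU-2025. The scaled signal of wheat0130Contig6231 was 919.7 and 918.7 in WT, 1856.4 and 2132.5 in Ldn/KU-2025, and 41366.4 and 39735.0 in crt/KU-2025. Mean signals were 919 ± 0.707 (SD, n = 2), 1994 ± 195 (SD, n = 2) and 40551 ± 1154 (SD, n = 2), respectively. The replicates of this probe lay closer together than those of PR4, with the higher array 1.15 times the lower in Ldn/KU-2025 and 1.04 times in crt/KU-2025.

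**Figure D1:**
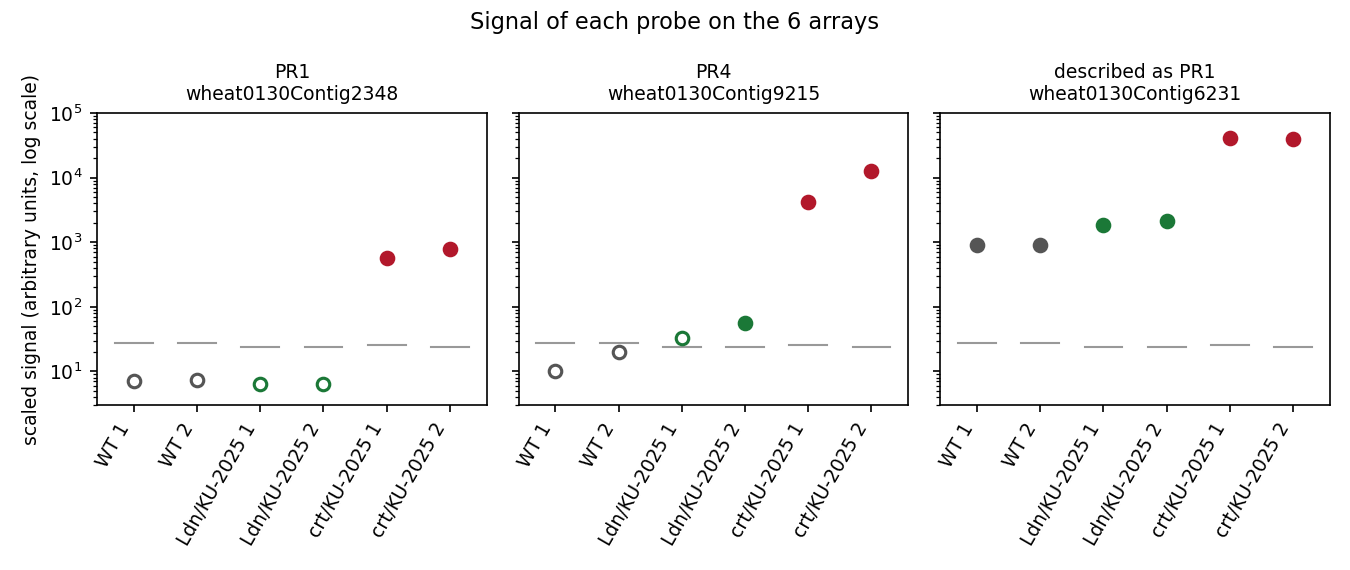
Scaled signal (arbitrary units, log scale) of each probe on the 6 arrays, replicates 1 and 2 of each line from left to right; filled points were well above background, open points were not, and the grey bars give the lowest signal of a detected probe on each array. PR1 is below the bars on all arrays but those of crt/KU-2025, PR4 is detected on replicate 2 of Ldn/KU-2025 and on both crt/KU-2025 arrays, and the PR1-described probe is detected on every array.

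To ask how the PR genes differed between a dwarf line and WT with the same tetraploid parent, Ldn/KU-2025 was compared with WT. A probe was called when it differed at least 3-fold with an adjusted p under 0.05 (limma on log2 signals, Benjamini-Hochberg over all probes). By this rule 366 probes (0.968%) were called higher and 74 (0.196%) lower in Ldn/KU-2025, and 0 of the 3 members was called. At an unadjusted p under 0.05 in limma, 11571 probes (30.6%) differed in either direction, among them 1 of the 3 members, the PR1-described probe. That count is near the share of all probes. The methods' t-test on linear signals called neither PR4 nor the PR1-described probe, beside 371 probes called higher and 67 lower over all probes. PR1 was undetected in both lines, so that its not being called is no result. The count of probes called higher depended on single arrays. It was 131 and 80 without replicates 1 and 2 of WT, when 113 and 76 probes were called lower, so that the excess of higher calls was nearly gone. Without replicates 1 and 2 of Ldn/KU-2025, 61 and 166 were called higher and 15 and 29 lower.

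PR4 had a log2 ratio of 1.62 ± 0.70 (SE) in Ldn/KU-2025 against WT, with a 95% confidence interval from -0.27 to 3.52 and a limma adjusted p of 0.211. Both Ldn/KU-2025 arrays were above both WT arrays, as was the case for 35.0% of all probes. The lower bound for undetected signals was 1.56-fold for PR4. For such a bound, signals of the dimmer line that fell below the lowest detected signal of their array were raised to it, and the bound is the ratio of the brighter line's mean to the mean of these values, both taken on the log2 scale. With the 4 arrays of these lines alone, without the uneven crt/KU-2025 arrays in the estimate of the spread, the adjusted p was 0.0911. The interval holds no difference as well as a difference of more than 3-fold, so no minimum rise of PR4 is established. Lower bounds, also where given below as "at least", allow for undetected signals only. They do not allow for the spread between arrays or for another background correction.

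The PR1-described probe had a log2 ratio of 1.11 ± 0.09 (SE) in Ldn/KU-2025 against WT, a 2.16-fold difference with a 95% confidence interval from 0.87 to 1.36 on the log2 scale and a limma adjusted p of 0.0135. It was below the 3-fold threshold and was not called. The WT arrays of this comparison also entered the study's choice of the probe. The adjusted p was 0.0657 with the replicate number as a block, and it lay between 0.0818 and 0.108 when an array of either line was left out, with log2 ratios between 1.01 and 1.21.

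In the comparison of crt/KU-2025 with WT, both PR1 and PR4 were called higher. The study's own qRT-PCR, on crowns of younger plants, reported a rise of these genes in both dwarf lines at low temperature only. At normal temperature it reported none, unlike the arrays of crt/KU-2025 here. From these same arrays, the study did report PR protein genes among the genes raised in crt/KU-2025. The reason for the difference between qRT-PCR and arrays was not tested. Over all probes, 4464 (11.8%) were called higher and 4155 (11.0%) lower by the same rule. The balance turned with the scaling, with 3683 higher and 4862 lower after scaling to the 75th percentile and 3972 and 4554 after quantile normalization. PR1 had a bound of 24.4-fold (log2 4.61), with a fitted log2 ratio of 6.52 ± 0.18 (SE), a 95% confidence interval from 6.03 to 7.00 and a limma adjusted p of 8.93e-05. The undetected signals of WT and Ldn/KU-2025 entered this fit as they were. Their log2 SD was 0.04 and 0.03, against 0.34 in crt/KU-2025. The interval and p-value therefore do not give the precision of the PR1 ratio. PR4 had a bound of 265-fold (log2 8.05), with a fitted log2 ratio of 9.03 ± 0.70 (SE), an interval from 7.13 to 10.92 and a limma adjusted p of 7.95e-04. That interval reaches below the bound, so a rise of at least 265-fold is not established. The arrays of the lines did not overlap for any of the 3 members, as was the case for 44.6% of all probes with crt/KU-2025 the higher. PR1 and PR4 were detected on both arrays of crt/KU-2025 and on 0 WT arrays, which was the case for 4.08% of all probes.

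The size of the PR4 ratio depended on the array and on the processing. Its log2 ratio to WT was 9.83 without replicate 1 of crt/KU-2025 and 8.23 without replicate 2. Another setting started from spot and local background medians and ended with quantile normalization. Its background correction adds an offset of 50 (normexp), which compresses low signals. The log2 ratio to WT was then 5.37 for PR4 and 2.42 for PR1. Against Ldn/KU-2025 these ratios were 5.18 and 2.51. All of these normexp ratios lay below the lower bounds of the same comparisons. In the methods' t-test, which takes linear signals, the adjusted p was 0.0664 for PR1 and 0.253 for PR4.

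Against WT, the PR1-described probe stood 44.1-fold higher in crt/KU-2025, a log2 ratio of 5.46 ± 0.09 (SE). The study listed it as raised in this line from these arrays, so its values are given as a description.

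The difference between the dwarf lines was given by crt/KU-2025 against Ldn/KU-2025, which share the Ae. tauschii parent and differ in the tetraploid parent. PR1 was the higher in crt/KU-2025 by at least 28.0-fold, with a fitted log2 ratio of 6.72 ± 0.18 (SE), a 95% confidence interval from 6.23 to 7.20 and a limma adjusted p of 1.04e-04. This interval too rests on undetected signals and leaves out the bound (log2 4.81). PR4 had a fitted log2 ratio of 7.41 ± 0.70 (SE), or 170-fold, with an interval from 5.51 to 9.30 and a limma adjusted p of 0.00153. Both Ldn/KU-2025 signals of PR4 were above the lowest detected signal, so the bound equals the fitted ratio, although only 1 of the 2 arrays was flagged as detected. PR1 and PR4 were both called, beside 3553 probes (9.39%) called higher and 3774 (9.98%) called lower in the comparison. The arrays again did not overlap for any of the 3, as for 47.8% of all probes with crt/KU-2025 the higher. The PR1-described probe was 20.4-fold higher, with a log2 ratio of 4.35 ± 0.09 (SE). In the methods' t-test the adjusted p was 0.0693 for PR1 and 0.268 for PR4. Without replicate 1 of crt/KU-2025 the log2 ratio of PR4 was 8.21, and without replicate 2 it was 6.60.

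**Figure D2:**
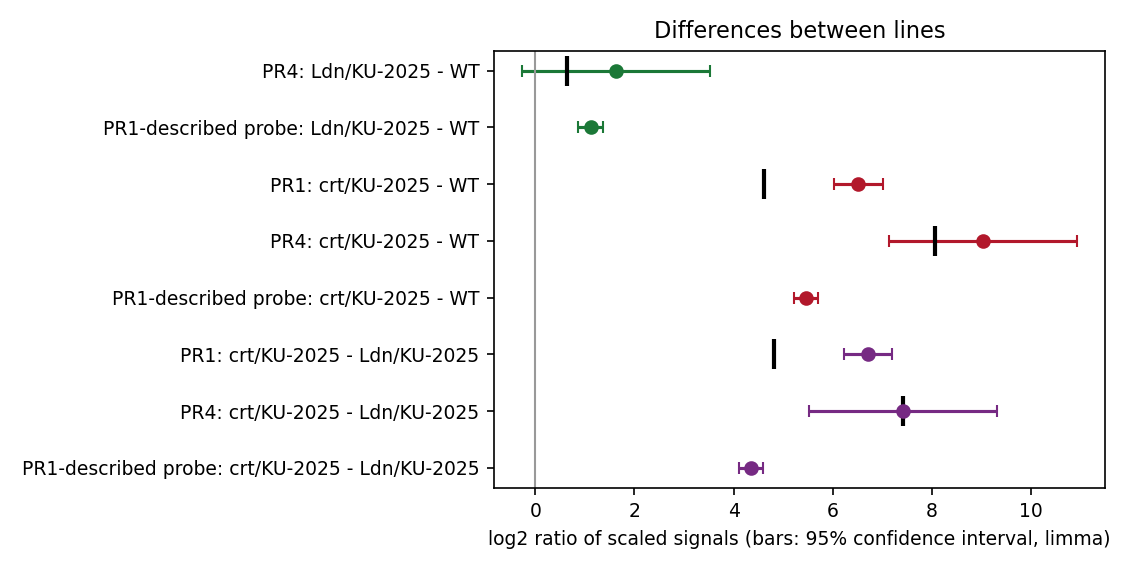
Log2 ratios of scaled signals between lines for each probe (points) with the 95% confidence interval of the limma fit (bars); black ticks mark the lower bound where the dimmer line was not detected on both arrays, and for PR4 in crt/KU-2025 against Ldn/KU-2025 the tick coincides with the point. Only the interval of PR4 in Ldn/KU-2025 against WT includes 0, and the ratio of PR1 in that comparison is left out because PR1 was detected in neither line.

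The comparisons share arrays, so the ratios are not independent of each other. Against WT, the log2 ratio of PR4 was 1.62 for Ldn/KU-2025 and 9.03 for crt/KU-2025, and that of the PR1-described probe was 1.11 and 5.46. The lines kept the order WT, Ldn/KU-2025, crt/KU-2025 for both, and for PR1 the first 2 lines cannot be ordered. In that order, PR4 in WT and Ldn/KU-2025 are the neighbours that did not differ beyond their spread by the limma test.

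The uneven PR4 signal of crt/KU-2025 was set beside other probes on the same arrays. Replicate 2 was above replicate 1 by 1.61 for PR4 and by 0.49 for PR1 on the log2 scale, and the PR1-described probe was 0.06 lower on replicate 2. A list of 19 photosynthesis probes, all taken from the study's list of probes raised in Ldn/KU-2025, which mark green leaf tissue (chlorophyll a/b-binding proteins, which hold the light-harvesting pigments, and ribulose bisphosphate carboxylase, the carbon-fixing enzyme, with its activase), differed far more between these arrays. In crt/KU-2025 18 of 19 were higher on replicate 2, with a median log2 difference of 5.65. Their summed scaled signal was 16319 on replicate 1 and 177103 on replicate 2 of crt/KU-2025. The sum was 5419 and 5299 in WT and 29106 and 29986 in Ldn/KU-2025, a direction fixed by the choice of the list, and 13 of 19 were detected on replicate 1 of crt/KU-2025. One of them, rwhcs20f08_m_664, a chlorophyll a/b-binding protein, was even between the crt/KU-2025 arrays at 8396.1 and 8315.4 and had the highest fitted ratio to WT in both dwarf lines. The probe whsh_allContig1245 had the lowest ratio of the list in crt/KU-2025, where its signals were 6.1 and 1090.7. The part of leaf tissue in the PR4 difference between the arrays was not tested. In bulk tissue, a change in the share of a cell type and a change in RNA per cell cannot be told apart.

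Median differences between these arrays were smaller in the defense families than in the photosynthesis probes. The median log2 differences between replicates 2 and 1 of crt/KU-2025 were -0.01 for the beta-1,3-glucanases, -0.08 for the chitinases, 0.02 for the peroxidases, -0.36 for the germin-like probes and 0.58 for the proteinase inhibitors. PR4 lay above all of these medians. Single probes of the families differed more than their medians, in either direction. On replicates 1 and 2 of crt/KU-2025, the peroxidase wheat0130Contig8692 was at 1457.6 and 3300.5. The proteinase inhibitor wheat0130Contig10174 was at 742.6 and 284.7.

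**Figure D3:**
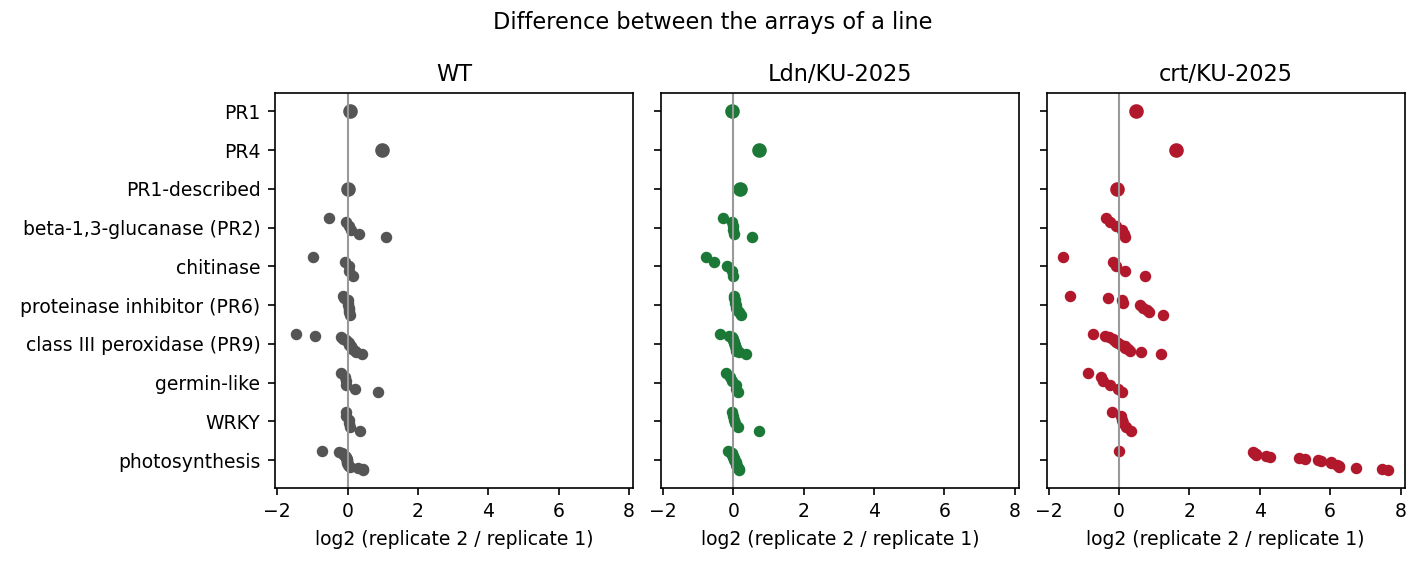
Log2 ratio of replicate 2 to replicate 1 in each line for the 3 probes and for each probe of the listed families. The photosynthesis probes lie near 0 in WT and Ldn/KU-2025 and, but for 1 probe, far to the right in crt/KU-2025 (median 5.65), where PR4 lies at 1.61 and PR1 at 0.49.

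Other PR families were described through 40 probes of 5 families and 2 probes with Bet v 1-like terms, beside 6 WRKY probes. All were taken from the readable part of the study's lists of probes changed against WT on these arrays. Their direction in the listed comparison is therefore fixed by the choice, it bears on any comparison that uses the same arrays, and the counts are no independent evidence of it. Over all probes the median log2 ratio to WT was -0.02 for Ldn/KU-2025 and 0.10 for crt/KU-2025, and the shares called are those given above (Ldn/KU-2025 0.968% higher and 0.196% lower, crt/KU-2025 11.8% higher and 11.0% lower).

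The beta-1,3-glucanases (PR2), which cut the glucan of fungal cell walls, were called higher in crt/KU-2025 against WT in 6 of 6 probes (median log2 ratio 7.33, or 6.31 when bounds replaced fitted values of undetected probes). In Ldn/KU-2025 1 of 6 was called higher. No median is read there, since 4 of the 6 were undetected on all arrays of WT and Ldn/KU-2025. MUGEST2003_23lib_Contig16264_863, undetected in WT, had the highest fitted ratio to WT in both lines. Its signals were 7.5 and 7.7 in WT, 100.4 and 82.6 in Ldn/KU-2025, and 16922.4 and 17821.9 in crt/KU-2025, at least 3.29-fold and at least 628-fold higher than in WT. The smallest ratio in crt/KU-2025 was 3.26 for MUGEST2003_23lib_Contig7048_526, which had a ratio of 0.90 in Ldn/KU-2025.

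The chitinases, which cut chitin, differed in direction among themselves. In crt/KU-2025 4 of 5 were called higher and 1 lower (median log2 ratio 4.75), and in Ldn/KU-2025 1 was called higher and 1 lower. The median of Ldn/KU-2025 fell on a probe undetected in both lines and is not given. The probe wheat0130Contig5371 was detected on 1 of 2 WT arrays, at 40.0 and 20.1, and reached 11543.0 and 10272.8 in crt/KU-2025, at least 326-fold higher. It was at 21.3 and 12.4, undetected, in Ldn/KU-2025. The probe wheat0130Contig5942 was called higher in both dwarf lines, with log2 ratios of 2.83 and 7.56. In contrast, wheat0130Contig6661, with terms for chitinase activity and chitin binding, was detected only in WT, at 334.2 and 341.7. It was at 13.7 and 9.3 in Ldn/KU-2025 and at 19.4 and 6.4 in crt/KU-2025, at least 14.1-fold and at least 13.5-fold lower than in WT.

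The proteinase inhibitors (PR6), which block digestive enzymes of insects and microbes, were called higher in 8 of 9 probes in crt/KU-2025 (median log2 ratio 7.23) and in 5 of 9 in Ldn/KU-2025 (median 1.67). The highest fitted ratio in both lines was that of MUGEST2003_23lib_Contig9443_306, a subtilisin-chymotrypsin inhibitor undetected in WT, at 7.7 and 8.1 in WT, 123.9 and 124.4 in Ldn/KU-2025, and 2719.8 and 6400.4 in crt/KU-2025. Like PR4, it was higher on replicate 2 of crt/KU-2025. Its rise over WT was at least 4.49-fold in the Ldn/KU-2025 line but at least 151-fold in crt/KU-2025. The probe whsh_allContig137, detected in all lines, was 163-fold higher in crt/KU-2025, above that bound, so that the highest of the family is not determined there. The lowest was the Bowman-Birk inhibitor wheat0130Contig10174, with log2 ratios of -1.78 (Ldn/KU-2025) and -1.18 (crt/KU-2025), neither of which was called.

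The class III peroxidases (PR9), secreted enzymes that use hydrogen peroxide and act on the cell wall, were called higher in 13 of 14 probes in crt/KU-2025 (median log2 ratio 3.55, or 3.40 with bounds) and in 10 of 14 in Ldn/KU-2025 (median 1.97, or 1.71 with bounds). The highest fitted ratio in crt/KU-2025 was that of the root peroxidase wheat0130Contig4339, undetected in WT, at 17.2 and 6.2 in WT, 119.4 and 118.1 in Ldn/KU-2025, and 1698.2 and 1274.4 in crt/KU-2025, at least 53.2-fold above WT in the last. The highest fitted ratio in Ldn/KU-2025 was that of wheat0130Contig8804, which rose at least 18.3-fold there but at least 56.5-fold in crt/KU-2025, so that these bounds do not order the pair. The lowest in crt/KU-2025 was MUGEST2003_23lib_Contig10856_290, with a log2 ratio of 0.15 that was not called. Its ratio in Ldn/KU-2025 was 1.67, which was called.

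The germin-like probes, whose products in cereals include hydrogen peroxide-forming oxalate oxidases, were split. In crt/KU-2025 3 of 6 were called higher and 1 lower (median log2 ratio 1.11), and in Ldn/KU-2025 3 of 6 were called higher (median 1.88). MUGEST2003_23lib_Contig3789_112, described as germin 8-5, had the highest fitted ratio in both lines. It was undetected in WT, with signals of 16.3 and 29.8, and was at 180.7 and 176.8 in Ldn/KU-2025 and at 15644.2 and 13140.7 in crt/KU-2025. The bounds were 6.26-fold and 502-fold, and in Ldn/KU-2025 wheat0130Contig12252, detected in all lines, was 6.97-fold above WT, so that the highest probe is not determined there. The probe whsh_allContig956 had the opposite signs, with a log2 ratio of -3.65 in crt/KU-2025, which was called, and 1.61 in Ldn/KU-2025, which was not. Between the dwarf lines 2 germin-like probes were called higher and 3 lower in crt/KU-2025, whereas 6 of 6 beta-1,3-glucanases, 4 of 5 chitinases, 8 of 9 proteinase inhibitors and 9 of 14 peroxidases were called higher and 0 lower. Over all probes 9.39% were called higher and 9.98% lower in that comparison, and 6 of the 6 beta-1,3-glucanases had been listed as raised on the same crt/KU-2025 arrays.

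Within the readable part of the study's lists, the only other probe with the terms of the PR1-described probe was whr25d14. Other probes of the array were not searched for these terms. The probe whr25d14 is described as S-norcoclaurine synthase, an enzyme of alkaloid synthesis in other plants that belongs to the Bet v 1-like proteins. Its signals were 106.9 and 109.0 in WT, 362.3 and 285.9 in Ldn/KU-2025, and 770.2 and 772.6 in crt/KU-2025. The log2 ratio to WT was 1.58 in Ldn/KU-2025, a 2.98-fold difference that fell short of the call, and 2.84 in crt/KU-2025, which was called. The 6 WRKY transcription factor probes, whose family includes regulators of PR genes, were all listed by the study as raised in crt/KU-2025. They were called higher in crt/KU-2025 in 6 of 6 (median log2 ratio 4.08) and in 0 of 6 in Ldn/KU-2025 (median 0.40), where 4 of 6 had an unadjusted p under 0.05 in limma, as did 30.6% of all probes. The ratios in crt/KU-2025 ran from 2.36 for wheat0130Contig12300 to 5.19 for rwhcs14n21_490, and the highest in Ldn/KU-2025 was 1.22 for rwhcs11i13_559.

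**Figure D4:**
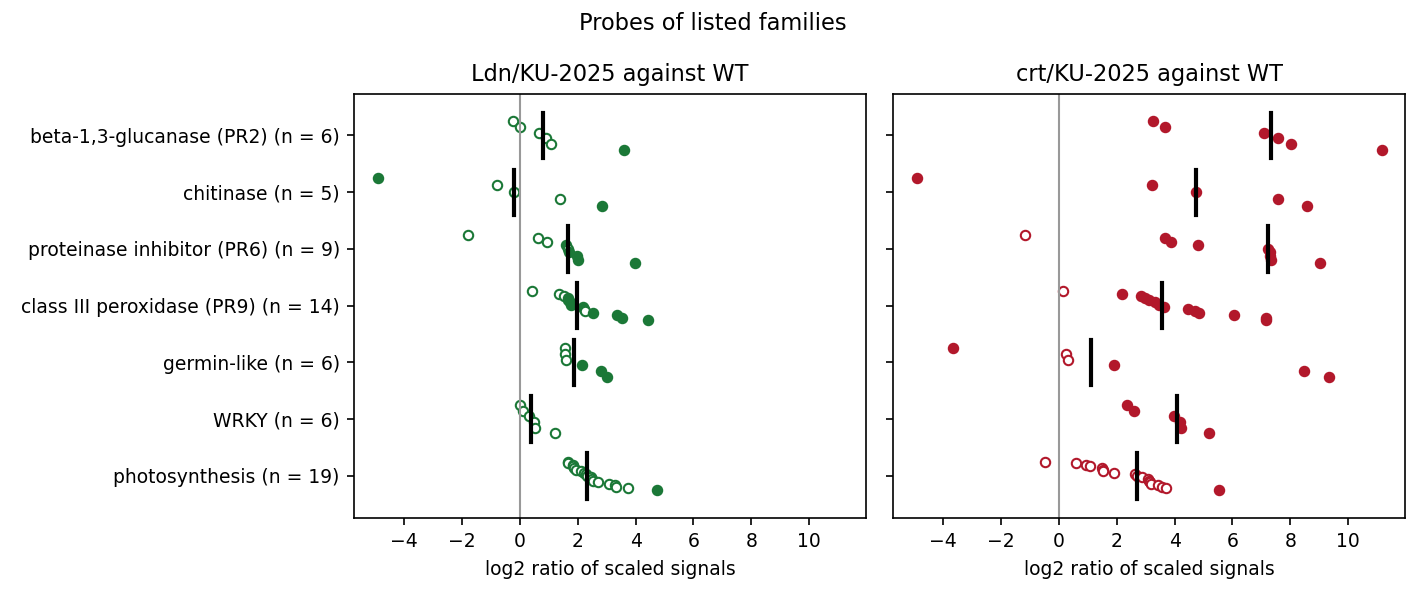
Log2 ratio to WT of each probe in the listed families, for Ldn/KU-2025 (left) and crt/KU-2025 (right); filled points were called (3-fold, adjusted p under 0.05), open points were not, and black bars are family medians. The medians in crt/KU-2025 reach 7.33 for the beta-1,3-glucanases and 7.23 for the proteinase inhibitors, and that of the proteinase inhibitors in Ldn/KU-2025 is 1.67. Points of probes undetected in both lines are drawn at their fitted ratios, and the glucanase and chitinase medians in Ldn/KU-2025 rest on such probes.

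The probes with the profile most like each member were found among the 30196 other probes detected on both arrays of at least 1 line, by the root mean square difference of log2 signals centred on their mean over the 6 arrays. With 3 lines of 2 arrays, likeness rests mostly on the differences between lines. A correlation of at least 0.95 with PR1 was reached by 7599 of these probes, so that a high correlation marks no small group.

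PR1 had 65 probes within a difference of 0.5. The nearest were MUGEST2003_23lib_Contig1223_887 at 0.068, wheat0130Contig7616 at 0.078 and MUGEST2003_23lib_Contig2308_p_569 at 0.090. On the WT and Ldn/KU-2025 arrays, PR1 and these probes were all below the lowest detected signal. They passed the filter through crt/KU-2025 alone, and their likeness on the other arrays is between undetected values. The probe wheat0130Contig7616, described as a B3 domain protein, a plant DNA-binding family, had signals of 6.4 and 6.9 in WT, 5.7 and 5.5 in Ldn/KU-2025, and 579.5 and 700.3 in crt/KU-2025. The other two have no description.

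PR4 had only 2 probes within 0.5, against 201 for the PR1-described probe. Its nearest was MUGEST2003_23lib_Contig6137_365 at 0.43, with signals of 80.3 and 78.2 in WT, 288.9 and 363.3 in Ldn/KU-2025, and 32304.0 and 130865.5 in crt/KU-2025. This probe too was higher on replicate 2 of crt/KU-2025. The next were rwhca10h01_752 at 0.50 and MUGEST2003_23lib_Contig2083_682 at 0.58, the latter with terms for metal ion transport. Both were below the lowest detected signal in WT, as was PR4.

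The PR1-described probe was nearest to MUGEST2003_23lib_Contig9077_113 at 0.10, wheat0130Contig11135 at 0.11 and whvs15m15_637 at 0.11. The last is described as SRG1, a name given to plant dioxygenases, and had signals of 143.7 and 155.9 in WT, 332.8 and 315.6 in Ldn/KU-2025, and 5933.1 and 6714.8 in crt/KU-2025. The nearest, MUGEST2003_23lib_Contig9077_113, was below the lowest detected signal in WT. Among the members themselves the differences were 1.16 between PR1 and PR4, 0.98 between PR1 and the PR1-described probe, and 1.68 between PR4 and the PR1-described probe, so that none of the 3 was among the nearest probes of another.

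**Figure D5:**
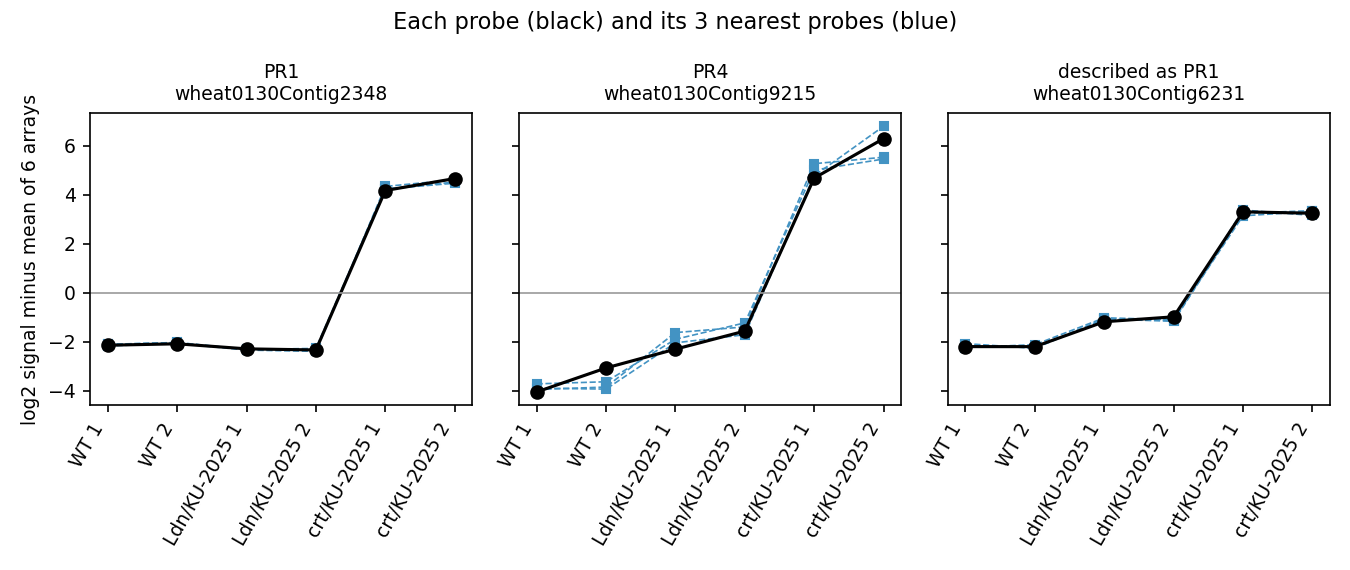
Log2 signal of each probe minus its mean over the 6 arrays (black) and of its 3 nearest probes (blue), by line and replicate. The nearest probes overlie PR1 and the PR1-described probe, and they lie farther from PR4, the nearest at a root mean square difference of 0.43. In WT and Ldn/KU-2025, PR1 and its nearest probes are all below the lowest detected signal.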

How the data were processed

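Crown RNA of 3 lines, 2 arrays each, was labelled with Cy3 and hybridized by the authors to the 1-colour KOMUGI wheat array. Agilent Feature Extraction gave background-subtracted, spatially detrended intensities (version 10.7.3.1 per the file headers, 9.5 in the submitters' processing notes). The deposited intensity values are these signals multiplied on each array by 2500 over the mean trimmed of the highest and lowest 2%. Signals scaled here in the same way differed from them by a median factor of 1.0004 to 1.0005. Genome build and annotation were not given in the sources used here.

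Control spots (1417 per array) were left out. Log2 values of 37826 probes were fitted with limma 3.58.1 in R 4.3.3 over the 6 arrays with 3 lines as groups (lmFit, eBayes, residual degrees of freedom 3), p-values were adjusted by Benjamini-Hochberg over all probes, and a probe was called at 3-fold and an adjusted p under 0.05. The fit was run on simulated data with changes added only to probes above the median WT signal and with the spread of WT and Ldn/KU-2025. That run does not cover probes undetected in WT, such as PR1 and PR4, or the spread of crt/KU-2025. Lower bounds and detection used the well-above-background flag. The precision is limited by the number of arrays. Named probes were the 3 members, for each member the 3 probes of most similar profile, and in each family the probes with the highest and lowest ratio of crt/KU-2025 to WT and the highest of Ldn/KU-2025 to WT. The members and lists were chosen with earlier results of these data known. Alternatives in source, scaling, background, low values, filter, test, threshold, block and left-out arrays were run. Low-temperature samples, qRT-PCR and small RNA were not analysed here.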

Additional observations from a re-analysis of the deposited data

Results flagged for a closer look

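The ratio to WT differed between the dwarf lines for PR1 and PR4, as tested by crt/KU-2025 against Ldn/KU-2025 in limma. The log2 difference was 6.72 for PR1 (limma adjusted p 1.04e-04, higher on 2 of 2 crt/KU-2025 arrays). Its lower bound was 4.81, since PR1 was not detected in Ldn/KU-2025. The p-value of PR1 rests on undetected signals and does not give the precision of its ratio. For PR4 the log2 difference was 7.41 (limma adjusted p 0.00153, higher on 2 of 2). In the methods' t-test neither was called, with an adjusted p of 0.0693 for PR1 and 0.268 for PR4. Both crt/KU-2025 arrays were above both Ldn/KU-2025 arrays for 47.8% of all probes. The log2 difference was 4.35 for the PR1-described probe, whose choice by the study used the crt/KU-2025 arrays, so that this value is a description. The slide of crt/KU-2025 cannot be told apart from the line in any of them. With 2 arrays per line, no array could be tested as an outlier of its line.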

How the results depend on the processing

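Each member ratio was recomputed under 18 alternatives, and no ratio changed sign. Some of these could not move a ratio by design. They are the block, the fit of only the 2 lines compared, the filter of dim probes and leaving out an array of the third line. No member spot was flagged as an outlier, and the 2-fold threshold cannot undo a call. The counts under all alternatives are therefore no measure of robustness. For crt/KU-2025 against WT and against Ldn/KU-2025, PR1 and PR4 were called under 17 of 18. The exception was the methods' t-test on linear signals, where the log2 ratios were 6.54 and 9.16 to WT and 6.74 and 7.57 to Ldn/KU-2025, with adjusted p of 0.0664, 0.253, 0.0693 and 0.268. PR4 in Ldn/KU-2025 was called under 0 of 18, with log2 ratios from 0.19 (normexp) to 2.11 (without replicate 2 of WT) and adjusted p from 0.0911 to 0.851. The PR1-described probe in Ldn/KU-2025, at 1.11, was called only with a 2-fold threshold. PR1 in Ldn/KU-2025 against WT was detected in neither line and was not recomputed. The number of probes called higher in Ldn/KU-2025, crt/KU-2025 and crt/KU-2025 against Ldn/KU-2025 was 86, 2009 and 1576 with normexp and 851, 7851 and 6785 at 2-fold. The t-test on linear signals gave 2581 in crt/KU-2025 against WT (3015 lower) and 1912 against Ldn/KU-2025. Leaving out 1 array gave 61 to 529 in Ldn/KU-2025 against WT. Replicate numbers did not pair the samples (correlation of same-numbered deviations from -0.07 to 0.03). With the replicate block 143 probes were called higher in Ldn/KU-2025 against WT, and no call of a member changed. The member ratios stay the same under the block by design, since each line holds both replicate numbers. They were 1.62 and 1.11 in Ldn/KU-2025 (PR4, PR1-described). For PR1, PR4 and the PR1-described probe they were 6.52, 9.03 and 5.46 in crt/KU-2025 against WT and 6.72, 7.41 and 4.35 against Ldn/KU-2025. Scaling to the 75th percentile moved the median log2 ratio of all probes in crt/KU-2025 against WT from 0.10 to -0.11. By Pearson correlation, 0 of the 3 nearest probes of each member were the same as by the root mean square difference. Leaving out outlier spots was chosen after seeing the data and changed no call of a member. The cause of these changes was not tested.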
